A study of Mus musculus with 5 samples.

Results

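The genes described here encode 9 RNA-binding proteins that set neuronal patterns of splicing: Srrm3, Srrm4, Rbfox1, Rbfox3, Nova1, Nova2, Elavl3, Elavl4 and Celf4. They were taken by name, with earlier results of these data known. A REST peak was assigned to one of them when it lay in the gene body or within 50 kb of the gene start. By this rule 24 of the 1860 sites in the series belonged to 8 of the 9 genes, out of 22380 protein-coding gene records. The series holds lists of REST peaks from chromatin immunoprecipitation and sequencing (ChIP-seq) of embryonic mouse pancreas. All libraries came from untreated wild-type embryos of a mixed strain with C57BL/6, and all used the mouse monoclonal anti-REST antibody 12C11. Embryos at E13.5 (E for embryonic day) gave 2 libraries, A and B, for each of which 4 to 6 pancreases were pooled. Embryos at E18.5 gave 3 libraries, A to C, of 3 to 4 pancreases each. The stages share letters but not embryos. Each pool was whole pancreas, so a peak cannot be given to one cell type, and the files hold peaks only, which leaves the tissue label without an expression check.

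REST is a zinc finger repressor that binds a long DNA element called RE1 and recruits histone deacetylases and other corepressors, keeping many neuronal genes silent in cells that are not neurons. The genes described here have neuronal functions, and whether REST silences each of them was not measured in these data. Srrm4 promotes the inclusion of very short neuronal exons and is known from other systems both as a REST target and as a splicing factor that acts on the Rest transcript itself, and Srrm3 is its relative. Rbfox1 and Rbfox3 (also called NeuN), Nova1 and Nova2, Elavl3 and Elavl4 (also called HuC and HuD) and Celf4 bind short motifs in RNA and regulate splicing, stability or translation of neuronal transcripts. Pancreatic endocrine cells share part of this neuronal gene program.

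In the E13.5 pancreas REST sites lay at 8 of the 9 regulators in both libraries (88.9%, exact 95% interval 51.8 to 99.7), all but Elavl4. The same rule gave such a site to 6.89% of all protein-coding genes. Taken singly, E13.5 A held peaks at 8 of the 9 genes beside 7.86% of all genes, and E13.5 B at 8 beside 7.57%. In E18.5 pancreas 3, 5 and 4 of the 9 genes had a peak in libraries A, B and C, where 3.28%, 3.06% and 1.97% of all genes did. A site called in at least 2 of the E18.5 libraries was found at 4 regulators (44.4%, interval 13.7 to 78.8), Srrm3, Rbfox3, Nova2 and Celf4, beside 2.20% of all genes. Several of these genes are long, and a long window catches more sites. Among the 1438 genes with windows of at least 198 kb, the median of the 9, the shares were 15.0% in both E13.5 libraries and 2.78% in at least 2 E18.5 libraries, and of the 5 regulators that long 4 and 2 had such sites. Over their windows of 2.34 Mb together the regulators carried 10.2 sites per Mb, and the assembled chromosomes carried 0.696 per Mb. The latter counts all sequence, inside and outside genes, and is not the density over the windows of other genes. Because the 9 genes were chosen with earlier results known, these shares and intervals describe the list and test no enrichment.

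**Figure D1:**
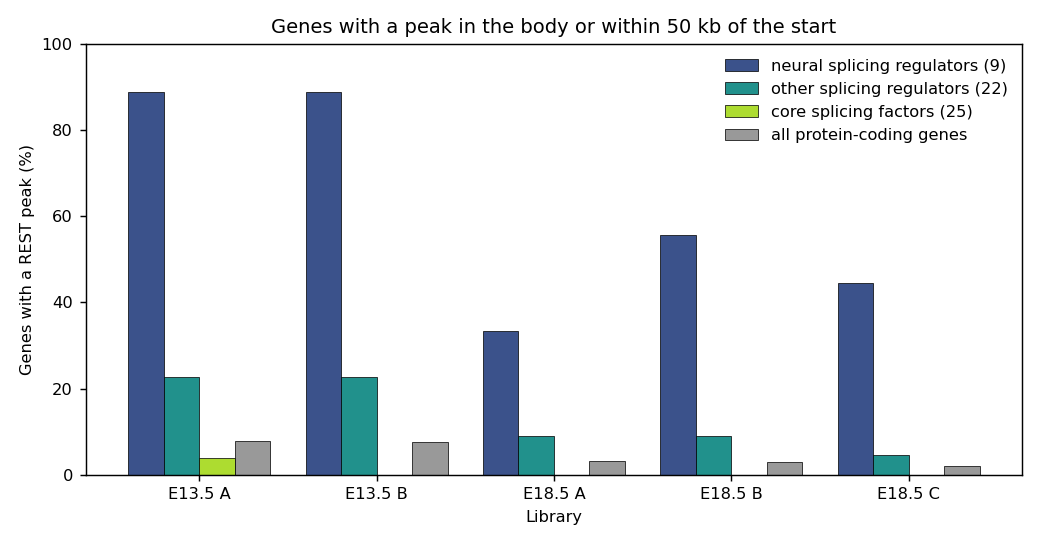
Percentage of genes (vertical axis) with a REST peak in the gene body or within 50 kb of the start, in each of the 5 libraries (horizontal axis), for the 9 neural splicing regulators, the lists of 22 other splicing regulators and 25 core splicing factors, and all protein-coding genes. The 9 regulators have the highest bar in each library, and core splicing factors have a bar in E13.5 A only.

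The lists differed in length, from 1400 and 1333 peaks at E13.5 to 541, 417 and 226 at E18.5. Median peak lengths differed most between the E13.5 libraries, at 161 bp in A and 483 bp in B. They were 311, 319 and 394.5 bp in E18.5 A, B and C. Read depths are unknown here, so a site missing from a list was not called there, which is not the same as absence of binding. The deposited peak score has no stated unit and was used only as a rank within its own list, expressed as a percentile with 100 as the highest. The 9 genes held 23 and 22 peaks of the E13.5 lists and 5 of each E18.5 list. As a share of each list this was 1.64% (interval 1.04 to 2.45) in E13.5 A, 1.65% (1.04 to 2.49) in E13.5 B, 0.924% (0.301 to 2.14) in E18.5 A, 1.20% (0.390 to 2.78) in E18.5 B and 2.21% (0.722 to 5.09) in E18.5 C. These intervals cover counting error only, and they overlapped between the stages.

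RE1 elements were found at most of these sites, and some are printed to show where the DNA followed the RE1 consensus and where it departed from it. The consensus has 21 positions, of which 2 in the middle are unscored. A match was a stretch with at most 4 mismatches on either strand within 500 bp centred on the site. Matches are printed 5′ to 3′ in the orientation of the element, read from the NCBI36/mm9 genome, with the element in capitals. The best-ranked element of 6 genes follows, with the 3 remaining elements of Srrm4 and a second element of Rbfox1, which were added after the values were seen. The 3 matched elements of Celf4, with 4 mismatches each, are not printed. Nor are the other matched elements of Rbfox3, which had 3 or 4 mismatches each.

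Srrm3 intron: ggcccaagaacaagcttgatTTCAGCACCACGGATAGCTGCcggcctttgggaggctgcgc
Srrm4 start: acgtTTCAGCACTTCGGACAGCGCCccag
Srrm4 intron, 37.7 kb: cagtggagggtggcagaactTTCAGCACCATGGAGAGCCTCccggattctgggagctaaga
Srrm4 intron, 45.9 kb: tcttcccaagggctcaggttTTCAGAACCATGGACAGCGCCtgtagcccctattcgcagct
Srrm4 intron, 73.6 kb: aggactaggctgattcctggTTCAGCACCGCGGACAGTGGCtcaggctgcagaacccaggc
Rbfox1 intron, 393 kb: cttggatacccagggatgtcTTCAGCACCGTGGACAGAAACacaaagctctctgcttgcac
Rbfox1 intron, 122 kb: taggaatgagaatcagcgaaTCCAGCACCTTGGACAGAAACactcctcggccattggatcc
Rbfox3 intron: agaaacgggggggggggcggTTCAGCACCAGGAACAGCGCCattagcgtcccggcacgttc
Nova2 intron: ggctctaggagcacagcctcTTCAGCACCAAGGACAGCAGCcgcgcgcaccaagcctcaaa
Elavl3 upstream: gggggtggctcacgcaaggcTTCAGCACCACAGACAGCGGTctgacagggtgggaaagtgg

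In mm9 these stretches span chr5:136319453-136319513 on the minus strand (Srrm3), chr5:117041500-117041528 on the minus strand, chr5:117004086-117004146 and chr5:116995911-116995971 on the plus strand and chr5:116968240-116968300 on the minus strand (Srrm4), chr16:7202071-7202131 on the minus strand and chr16:6931049-6931109 on the plus strand (Rbfox1), chr11:118446361-118446421 on the minus strand (Rbfox3), chr7:19536924-19536984 on the minus strand (Nova2) and chr9:21858294-21858354 on the plus strand (Elavl3). Substitutions are given with the consensus base first, the position counted from 1 at the 5′ end of the element, and then the genomic base. The Srrm4 start element differed from the consensus only by C9T, the Srrm4 element at 45.9 kb only by C6A and the Rbfox3 element only by G13A. Nova2 carried G19A and C20G. Srrm3 carried C15T, G19T and C20G, and Elavl3 carried G12A, C20G and C21T. Both Rbfox1 elements ended alike, with C18A, G19A and C20A, although they lie 271 kb apart on opposite strands. That end was chosen for counting after it was seen. It occurred in 2 of the 17 matched elements of the regulators, both in Rbfox1, and in 4 of 975 matched elements elsewhere (0.410%).

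Of the 24 regulator sites 17 held an RE1 match (70.8%, exact 95% interval 48.9 to 87.4), beside 975 of 1825 other sites (53.4%, 51.1 to 55.7). Where a site was shared by the E13.5 libraries, the counts were 16 of 21 (76.2%, 52.8 to 91.8) and 809 of 1162 (69.6%, 66.9 to 72.3), and the intervals overlapped. Windows of the same length 10 kb downstream of all sites held a match in 4 of 1849 (0.216%). Matched elements lay at a median of 13 bp from the middle of the site and 70 bp at most, 8 of the 17 on the strand of the gene. The median mismatch number was 3 at the regulators and 3 over all matched sites. Mismatches fell most often at positions 18, 19 and 20 of the element, in 8, 9 and 9 of the 17 elements (47.1%, 52.9% and 52.9%), where 30.2%, 53.0% and 35.1% of the other elements had one. Positions 3, 4, 5, 7, 8, 14 and 16 were intact in all 17. They were seldom changed elsewhere too, from 0.103% of the other elements at position 8 to 9.95% at position 14.

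**Figure D2:**
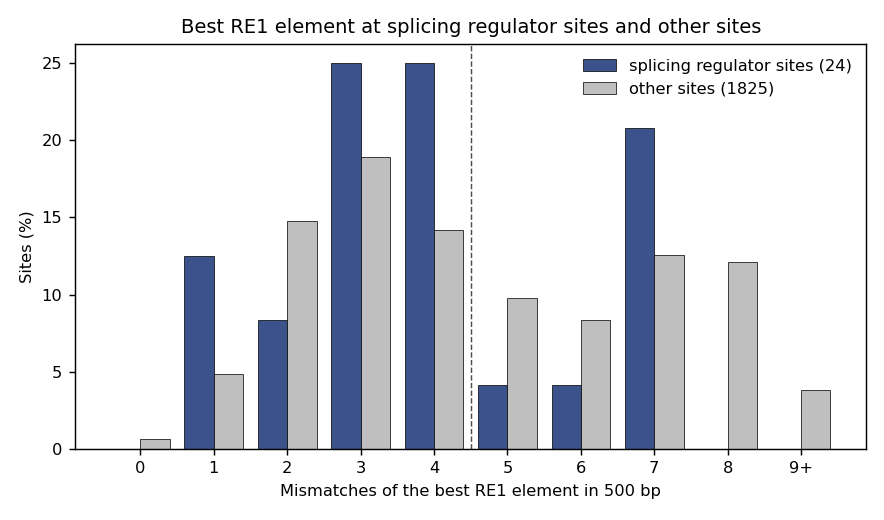
Percentage of sites (vertical axis) by the number of mismatches in their best RE1 element within 500 bp (horizontal axis), for the 24 sites of the splicing regulators and 1825 other sites. Matches lie left of the dashed line, and 17 of the 24 sites fall there, while 5 of the remaining 7 have 7 mismatches.

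The 7 sites without a match were the site at the Srrm3 start, 3 sites of Rbfox3, the single site of Nova1, the intronic site of Elavl3 and the site next to the Celf4 start. Their windows were also searched for the left and right arms of the element alone (TTCAGCACC and GGACAGCGC, both strands, at most 1 mismatch, either arm free to overlap a longer match). A pair of arms with a gap of up to 20 bases other than the usual 2 was found at 2 of them, with a gap of 0 in Rbfox3 and of 8 in Celf4, beside 137 of 850 unmatched sites elsewhere (16.1%) and 2 of 1849 downstream windows (0.108%). At least 1 arm was present in all 7, in 462 of 850 unmatched other sites (54.4%) and in 319 of 1845 unmatched downstream windows (17.3%). A single arm thus also occurred away from the sites, in a smaller share of windows. The windows of the regulator sites had a median GC content of 49.9%, and those of all sites 47.6%.

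The gene body held 21 of the 24 sites (87.5%, exact 95% interval 67.6 to 97.3), with 19 in introns and 2 in untranslated regions of exons. The gene bodies made up 79.8% of the windows, so this share is close to what the rule sets. Of the 24 sites, 6 (25.0%, 9.77 to 46.7) were within 5 kb of the start of their own gene. Over all sites 28.7% were within 5 kb of any protein-coding start. The map of peaks along the genes shows the sites of Srrm4, Rbfox1, Rbfox3 and Celf4 spread over long distances, several of them in long introns. The Srrm4 start site was in an untranslated region, 1 Rbfox3 site was upstream of the gene and 1 Celf4 site was in an intron of 3670 bp.

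**Figure D3:**
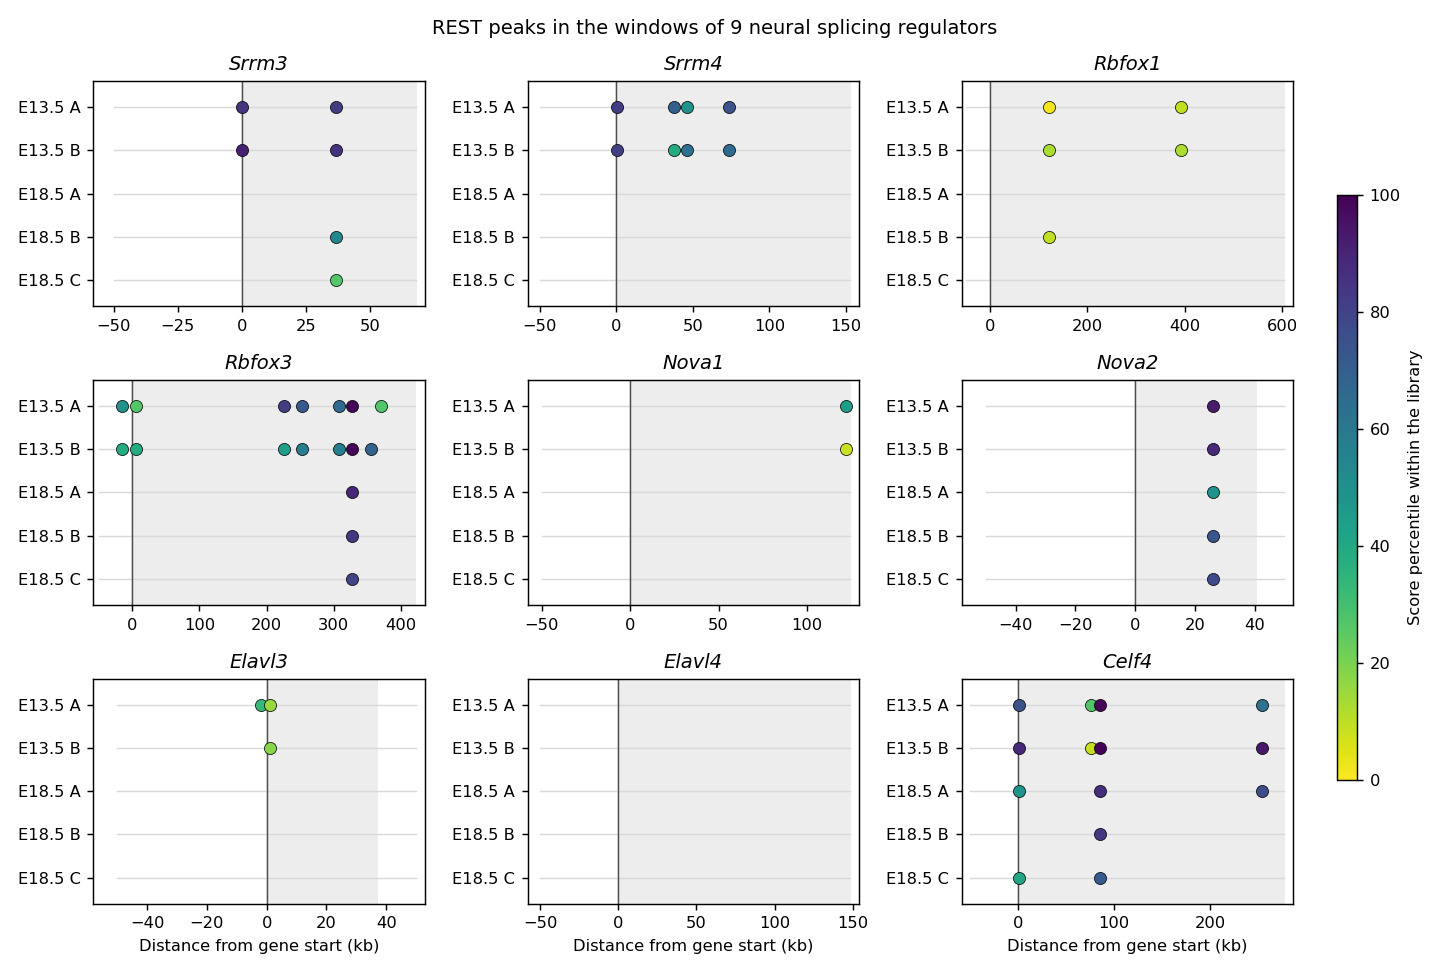
REST peaks along the 9 genes, with distance from the gene start in kb on the horizontal axis, positive in the direction of transcription, and 1 row for each library. Grey shading marks the gene body, circles are peaks, and their colour is the score percentile within the library. Elavl4 has no peak, the 4 sites of Srrm4 appear in the E13.5 rows only, and 1 site each in Rbfox3, Nova2 and Celf4 appears in all 5 rows.

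Srrm4, the microexon regulator, had 4 sites, all called in both E13.5 libraries and none at E18.5, and each held an RE1 match. The gene lies on the minus strand of chromosome 5 from 116889281 to 117041826. Its start site (chr5:117041272-117041785) was in an untranslated region 296 bp into the gene and ranked at percentiles 82.1 in E13.5 A and 81.5 in B. The other sites were in intron 1, which is 108797 bp long. Their percentiles in A and B were 69.6 and 39.0 at 37.7 kb from the start, 49.7 and 63.0 at 45.9 kb, and 74.8 and 65.4 at 73.6 kb. The A and B ranks were close at the start site and 30.6 percentiles apart at the site at 37.7 kb. Only 16 protein-coding genes in the genome had at least 4 sites shared by the E13.5 libraries, and Srrm4, Rbfox3 and Celf4 were 3 of them.

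Srrm3, on the plus strand of chromosome 5 from 136282760 to 136350642, had 2 sites in both E13.5 libraries. One spanned its start (chr5:136282487-136283027), at percentiles 85.1 and 91.1, without an RE1 match and without a call at E18.5. The other was in intron 3, 36.7 kb into the gene (chr5:136319180-136319745), at percentiles 82.1 and 85.8. This intronic site held the RE1 match printed above and was called again in E18.5 B at percentile 53.2 and in E18.5 C at 26.8, and not in E18.5 A. In both libraries of the earlier stage the start site thus ranked above the intronic one, and only the intronic one was called later. The start region with no match had a GC content of 62.6%, and the intronic window 50.6%.

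Rbfox3, whose product is the neuronal nuclear antigen NeuN, had the most sites of the 9 genes. It spans 118351074 to 118772911 on the minus strand of chromosome 11 and held 8 sites, 6 of them in both E13.5 libraries. By that count it was among the 4 genes with the most such sites in the genome, with Camta1 (8), Gm20388 (7, over a record with a window of 4485 kb) and Atp2b2 (6). The strongest site was in intron 4, 327 kb from the start (chr11:118446002-118446650), at percentiles 98.7 and 98.8 in the earlier libraries and at 89.3, 84.1 and 79.9 in E18.5 A, B and C. None of the other 7 sites was called at E18.5. The shared ones among them ranked at means of 33.0 to 64.9 over the E13.5 libraries, at 15.7 kb upstream of the start and at 4.84, 226, 252 and 308 kb inside the gene. One more site at 356 kb was called in E13.5 B only, at percentile 68.0, and one at 371 kb in A only, at 27.0. Neither single-library site held an RE1 match. The nearest gene start to the 6 sites from 226 kb onwards was that of Engase, 64.0 to 209 kb away from them.

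Rbfox1 had weak sites. This gene, on the plus strand of chromosome 16 from 6809315 to 7412572, is the longest of the 9, and its 2 sites lay 122 and 393 kb from the start in introns of 415062 and 154225 bp. The site at 122 kb (chr16:6930826-6931294) ranked at percentiles 1.39 and 12.8 in E13.5 A and B and was still called in E18.5 B, at percentile 8.99. The site at 393 kb (chr16:7201836-7202326) ranked at 9.14 and 12.8 and was not called at E18.5. Both were near the lower end of each list that held them, and both carried the printed RE1 elements.

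Nova2 had 1 site, called in all 5 libraries. The gene runs from 19510698 to 19551031 on the plus strand of chromosome 7, and the site (chr7:19536692-19537212) was in intron 4, 26.2 kb from the start. It ranked at percentiles 92.8 and 88.4 in the earlier libraries and at 48.1, 73.5 and 77.4 in E18.5 A, B and C. Its paralog Nova1, on the minus strand of chromosome 12 from 47795504 to 47919762, had 1 site of another kind, in an untranslated region 122 kb from the start and near the 3′ end (chr12:47797727-47798152), at percentiles 44.8 and 8.25 at E13.5, with no RE1 match and no call at E18.5. The paralogs therefore differed in the place, the rank and the element of their sites.

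Elavl3 and Elavl4, the HuC and HuD genes, had few calls or none. Elavl3 lies on the minus strand of chromosome 9 from 21819449 to 21856467. Its intron 1 site, 1.28 kb from the start (chr9:21854969-21855368), ranked at percentiles 15.4 and 17.97 in the E13.5 libraries and held no RE1 match, in a window with a GC content of 74.2%. The site 1.84 kb upstream (chr9:21858260-21858362), called in E13.5 A only at percentile 33.0, held the RE1 match. Neither was called at E18.5. Elavl4, from 109876327 to 110024514 on the minus strand of chromosome 4, had no peak in any of the 5 libraries. The limits of the windows decided some of this. Past the 3′ end of Elavl4, 83.9 and 115 kb outside its window, lay 2 sites called in both E13.5 libraries (chr4:109791994-109792477 and chr4:109760399-109760946, mean percentiles 38.6 and 68.2), the latter also in E18.5 A and B, each with an RE1 match of 3 mismatches. The nearest gene start to both was that of Dmrta2, 142 and 110 kb away, while the Elavl4 start was 232 and 264 kb away. Next to Elavl3, 51.2 kb outside its window, was a site of mean E13.5 percentile 99.4 in all 5 libraries (chr9:21754680-21755251), with 2310047B19Rik as its nearest gene start, 5236 bp away. Srrm4 had a further E13.5 site 72.4 kb outside its window, 123 kb upstream of its start, and another 188 kb outside (chr5:117279757-117280257, mean percentile 28.8), each with an RE1 match. The nearest gene start to the former was that of Gstm2-ps1, 81.0 kb away, and to the latter that of 4930569F06Rik, 8541 bp away. Srrm3 had a site in E13.5 A only 14.5 kb outside, within Tmem120a and 1984 bp from the start of that gene.

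Celf4, an RNA-binding protein of excitatory neurons, was the regulator with the most calls at E18.5. It lies on the minus strand of chromosome 18 from 25636133 to 25912484 and had 4 sites, all in both E13.5 libraries. The strongest was in intron 2, 85.7 kb from the start (chr18:25826425-25827127), at percentiles 98.2 and 99.02 in the earlier libraries and at 86.9, 84.1 and 71.7 in E18.5 A, B and C. The site 1035 bp from the start (chr18:25911180-25911708) ranked at 74.8 and 88.4 and was called in E18.5 A at 48.1 and in C at 41.4. The site in intron 8, 253 kb from the start, ranked at 62.6 in A and 93.4 in B and was called in E18.5 A at 76.6. A weak intron 2 site at 76.4 kb, at percentiles 27.0 and 8.25, was not called at E18.5. Of the 4, the 3 away from the start had an RE1 match of 4 mismatches each.

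**Figure D4:**
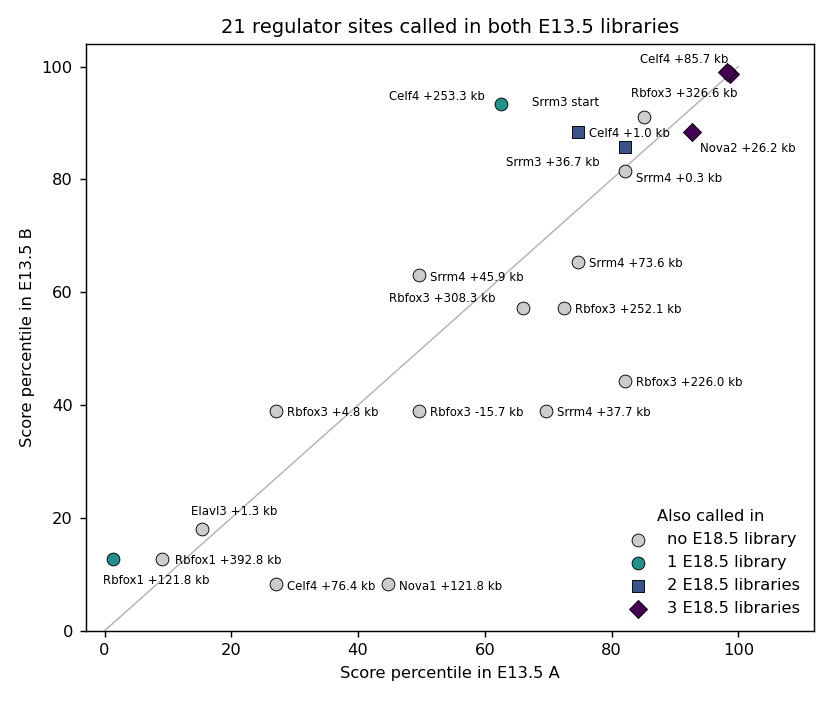
Score percentiles in E13.5 A (horizontal axis) and E13.5 B (vertical axis) of the 21 regulator sites called in both, each labelled with its gene and its distance from the gene start. The diagonal marks equal percentiles, and colours and shapes give the number of E18.5 libraries that called the site. The 3 sites of all 5 libraries lie at the upper right, and the Rbfox1 sites at the lower left.

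Ranks varied widely among the regulators. The 21 shared sites had a median of 63.2 for the mean E13.5 percentile, with a range of 7.09 to 98.7, and the median over all 1186 shared sites was 54.3. Every one of the 24 sites had an E13.5 peak, in lists that were longer than those of E18.5. The same share over all sites was not computed, so this count is not read as a trait of the regulators. Of the 21, 7 were called in at least 1 E18.5 library (33.3%, interval 14.6 to 57.0), beside 470 of 1162 shared sites elsewhere (40.4%, 37.6 to 43.3). The 1162 leave out sites on sequences outside the genome file, which the 1186 include. Calls at E18.5 followed the earlier rank over all shared sites. In 5 groups of rank from lowest to highest, 8.97%, 13.8%, 34.3%, 54.7% and 90.0% of them were called again. The regulator sites in the same groups numbered 1 of 5, 0 of 2, 0 of 3, 1 of 4 and 5 of 7. The 2 sites of the top group without an E18.5 call were those at the starts of Srrm3 and Srrm4.

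**Figure D5:**
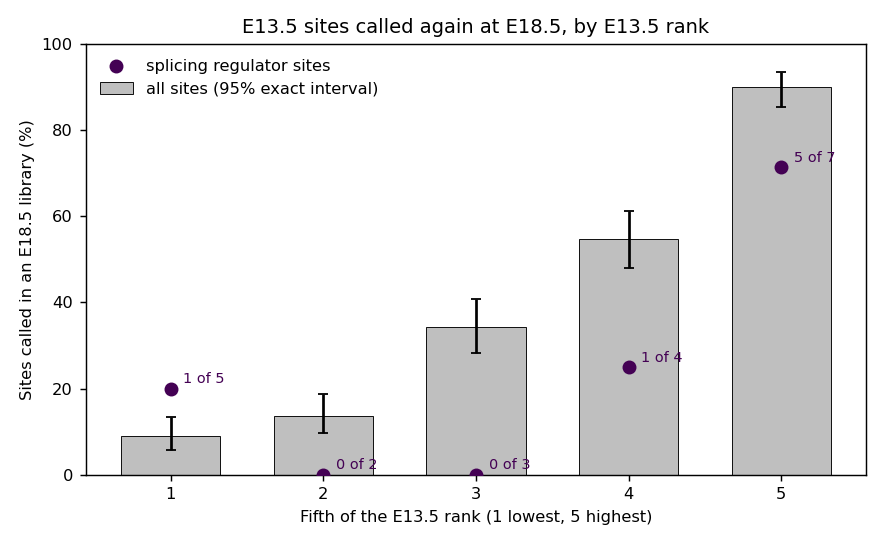
Percentage of E13.5 sites called in at least 1 E18.5 library (vertical axis) in 5 groups of E13.5 rank (horizontal axis, 1 the lowest), as bars with exact 95% intervals for all shared sites and as points for the splicing regulator sites, with their counts. The bars climb from 8.97% to 90.0%, and the points stand at 5 of 7 in the highest group.

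Between the stages, 7 of the 8 regulators with a site had more peaks in each E13.5 library than in any E18.5 library. This was also true of 38.5% of the 2193 genes with a site in any library. All 8 regulators had a site in both E13.5 libraries, as did 1543 genes in all, so the 2193 are a wider set and the shares are not like for like. The peak numbers in E13.5 A and B and then E18.5 A, B and C were 4, 4, 0, 0 and 0 for Srrm4, 7, 7, 1, 1 and 1 for Rbfox3, and 4, 4, 3, 1 and 2 for Celf4. Srrm3 had 2, 2, 0, 1 and 1, and Rbfox1 2, 2, 0, 1 and 0. The mean difference was 6 peaks for Rbfox3, 4 for Srrm4, 2 for Celf4, 1.67 for Rbfox1, 1.5 for Elavl3, 1.33 for Srrm3 and 1 for Nova1, while Nova2 had 1 peak in every library. For each of the 7 genes the exact two-sided permutation test gave p = 0.2, the smallest value that 2 against 3 libraries allow, so none could pass 0.05. The length of the lists moves with this difference and cannot be told apart from stage in the full lists. When the 226 highest-scoring peaks of each library were compared, the regulators held 4 and 7 peaks in the E13.5 lists and 3, 4 and 5 in the E18.5 lists, and no gene had more peaks in each E13.5 library than in every E18.5 library.

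Other gene lists put these counts in context. Of 22 other splicing regulators 5 had a site in both E13.5 libraries (22.7%, interval 7.82 to 45.4), and of 25 core splicing factors 0 did, which allows a share of up to 13.7%. The 5 were Celf6, Celf5, Celf3, Elavl2 and Khdrbs3, of which the first 4 are close relatives of Celf4, Elavl3 and Elavl4. The Celf6 site was in a coding exon 503 bp from the start, ranked at a mean E13.5 percentile of 95.6 and was called in all 5 libraries, with an RE1 element of 1 mismatch. Celf5 (mean percentile 81.0) and Elavl2 (34.6) were each called in 1 E18.5 library, and Celf3 and Khdrbs3 (best sites at 40.4 and 28.8) in none. The lone core factor window with a peak, of Snrnp70, held it in E13.5 A only, 802 bp from the start of Ppfia3.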

How the data were processed

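REST ChIP-seq peaks of 2 E13.5 and 3 E18.5 mouse pancreas libraries were used as the authors deposited them. The submitters' processing notes, with the methods of the study, state that reads were mapped to NCBI36/mm9 with Bowtie2 2.2.5, filtered with SAMtools and called with MACS2 2.1.0 against input DNA, and the names of the lists state removal of duplicates and a 10% false discovery rate. Calls in these lists were per library, without pooling. The study's methods describe pooled replicates and a stricter false discovery limit, so its own peak set is not the one used here. The deposited score has no unit in the sources used here and is not a read count, so depth is unknown and scores were only ranked within a library.

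Overlapping entries of a list were merged, and peaks of different libraries that overlapped by at least 1 bp were joined into sites. Gene records were those of GENCODE in the mm9 annotation, with the longest record of each symbol (all 9 matched). Each site was searched for RE1 in the 500 bp around its centre with Python 3.11.15, NumPy 2.4.6, SciPy 1.17.1 and pysam 0.24.0, after tests on simulated data. The 11 sites on sequences outside the genome file were left out of sequence counts and of the totals of 1849, 1825 and 1162 sites. Intervals are exact binomial (Clopper-Pearson). Libraries were grouped by stage from the labels, which call them biological replicates. The named genes were all 9 regulators, listed splicing genes with a site in both E13.5 libraries, and up to 3 other genes with as many such sites as the top regulator. Snrnp70 and the neighbouring genes Ppfia3, Engase, Dmrta2, 2310047B19Rik, Gstm2-ps1, 4930569F06Rik and Tmem120a fall outside this rule and were named after their values were seen. A background limited to windows as long as the shortest of the 9 equals all genes, so the median window was used, chosen after seeing the data. The regulators and lists were chosen with earlier results of these data known.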

Additional observations from a re-analysis of the deposited data

How the results depend on the processing

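The regulators' counts were recomputed with other windows, shorter lists, a stricter overlap and each library left out. Within 5 kb of the start alone there were 6 sites, 5 genes with a site in both E13.5 libraries, 1 in at least 2 E18.5 libraries, 4 with more E13.5 peaks, a median rank of 81.6 and by construction 100% near the start. With the 226 highest-scoring peaks per library these were 7 sites, 4 genes in both E13.5 libraries, 0 genes with more E13.5 peaks, a median rank of 94.6 and 75.0% (3 of 4) called at E18.5. With the 50% highest-scoring peaks of each list 5 genes kept a site in both E13.5 libraries, 4 had more E13.5 peaks and the median rank was 81.8; dropping low scores raises it by construction. RE1 matches fell to 45.8% at 3 mismatches and came to 100% with single arms counted. The other sites were not recounted at these settings. At least 1 arm also occurred in 54.4% of unmatched other sites and in 17.3% of unmatched downstream windows. A limit of 1 kb left 8.33% near the start. The differences in peak number of Rbfox1, Nova1 and Elavl3 fell to 0 with the 50% or the 226 highest-scoring peaks, those of Srrm4 and Rbfox3 to 0 with the 226, those of Rbfox1 and Nova1 to 0 within 5 kb, and that of Nova2 went from 0 to 0.333 with either shorter list. The other 77 recomputed summary counts, shares and medians stayed within 1.5 times the count, the interval of the share or the spread of the median, leaving out any library included. No difference reversed its sign. No paired analysis was possible because the letters name different embryos at the 2 stages. Unknown depth limits each absence of a peak.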
